A study of Mus musculus with 16 samples.

Results

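The late and the early injured state of retinal microglia were compared between 4 libraries collected at day 7 and 4 libraries collected at day 2 after optic nerve crush, 8 of the 16 RNA sequencing libraries of the study. The 8 libraries were chosen by their labelled day alone. Each was made from retinal cells of the mouse strain Iba1-EGFP that had been sorted by flow cytometry and labelled microglia. The strain carries a green fluorescent protein under the Iba1 (Aif1) promoter, which is active in microglia and also in other macrophages. Optic nerve crush, which severs the axons of retinal ganglion cells by squeezing the nerve behind the eye, is the only treatment of both groups. The mice were 13 weeks old at day 2 and 16 weeks old at day 7, so that the day and the age cannot be told apart. The other 8 libraries, from untreated mice at 15 weeks (day 0) and from crushed mice at 13 weeks (day 4), serve below as description and in named alternative fits. The labels do not say whether the 4 libraries of a day came from separate animals, so p-values measure only the spread between libraries, which may be technical.

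Microglia are the resident macrophages of the retina and are kept in a surveying state by signals from neurons, marked by genes such as P2ry12 and Tmem119. After injury of ganglion cell axons they divide, change shape and take up debris, and many pass through states named for their genes. These include a dividing state, an interferon-responsive state and a disease-associated state with high expression of genes for lysosomal, lipid and adhesion proteins. The comparison of day 7 with day 2 asks which of these programmes belong to the first days after the crush and which to the end of the first week.

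Between 8647276 and 14127982 reads per library could be recovered from the deposited FPKM (fragments per kilobase of gene, scaled to the reads of the library), and 9315 to 12509 genes had at least 1 FPKM. At a gene length of 1 kb, 3 reads correspond to between 0.212 and 0.347 FPKM in these libraries, and lower values rest on fewer reads. Transcripts of microglia were abundant in all 8 libraries: Ctss, a lysosomal protease, lay between 8679 and 16950 FPKM, and C1qa between 1163 and 2704 FPKM. The surveying markers P2ry12 and Tmem119 lay between 150.1 and 1050 FPKM and between 42.5 and 652.8 FPKM. The part of other macrophages in these levels was not tested. RNA of other retinal cells was also present, with a summed level of 15 rod genes between 2324 and 8340 FPKM. The 37 mitochondrial genes were listed at 0 throughout. The title codes split replicates 1 and 2 (a code starting with 19, below code 19) from replicates 3 and 4 (starting with 20, below code 20) of both days, and this split was used as the batch. With code 19 both days share the whole code and the title prefix M. With code 20 the end of the code differs between the days, and day 2 carries the prefix F and day 7 the prefix M. The labels do not explain these letters, and Xist was at or below 0.0946 FPKM in all 8 libraries. Day 7 replicate 4 stood apart on the first principal component, which held 27.6% of the variance, and day 7 replicate 3 on the third (15.3%).

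Of 11281 genes tested, 2 rose and 1 fell from day 2 to day 7 at an adjusted p under 0.05 (limma with batch term), which is 0.0177% and 0.00886% of the genes and 0.0266% in either direction. Without adjustment, 378 genes (3.35%) were higher and 736 (6.52%) lower at p under 0.05. All 4 day 7 libraries lay above all 4 day 2 libraries for 200 genes (1.77%) and below them for 391 genes (3.47%). Only genes that reached 1 FPKM in at least 4 of the 8 libraries were tested. A gene under 1 FPKM in every library of 1 day thus passed only if every library of the other day reached 1 FPKM. For such genes the days cannot overlap, so their separation is no support, here or in the lists below. The median change over all genes tested was -0.11 on the log2(FPKM + 1) scale. Scaling the libraries by the median of their ratios moved it by 0.13, to 0.02, and changes are best read against that shift. A fit that took the spread from all 16 libraries called 11 genes higher (0.0975%) and 22 lower (0.195%), and 2 of the 3 genes called here, Cxcl13 and Car8, were among these 33.

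The gene with the lowest p was Cxcl13, which encodes a chemokine that attracts B cells through the receptor CXCR5. Its value was 0 in each of the 4 day 2 and the 4 untreated libraries. At day 7 it measured 96.4, 139, 31.4 and 97.4 FPKM in replicates 1 to 4. All 4 day 7 libraries carried the transcript and no day 2 library did, a separation that the filter required of a gene at 0 throughout day 2. Day 4 lay between, with 9.14 and 12 FPKM in replicates 1 and 2 and 0 in replicates 3 and 4. The rise had an adjusted p of 0.00881, and no fold is given because day 2 has no reads. It held its call in 16 of 25 alternative settings. Leaving out day 2 replicate 1 or 2 or day 7 replicate 1 or 2 ended the call, with adjusted p of 0.0594, 0.0534, 0.0714 and 0.154.

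Car8, a carbonic anhydrase family member that lacks the enzymatic activity, was the other gene that rose. It was at 0, 0.0232, 0 and 0 FPKM at day 2 and at 20.8, 37.9, 18.9 and 24.7 FPKM at day 7. The fitted change was 4.67 ± 0.47 (SE, log2(FPKM + 1), n = 4 and 4) with an adjusted p of 0.0281, and its size depends on the pseudocount because 3 of the day 2 libraries are at 0. Untreated libraries varied between the levels of the 2 days for this gene, at 28.9, 12.4, 0 and 7.64 FPKM, while day 4 did not exceed 0.0444 FPKM. Leaving out any 1 of the 8 libraries ended the call, with adjusted p between 0.0655 and 0.178. RNA of bipolar neurons moved in the same direction as Car8, and its part in this result was not tested: the summed level of the 12 bipolar genes matched was 15.2 to 115.7 FPKM at day 2 and 83.7 to 376.2 FPKM at day 7. Pcp2, the most abundant of them with Gng13, measured 25, 15.6, 3.63 and 0.35 FPKM at day 2 and 31.9, 162, 13.9 and 91.7 FPKM at day 7. Antisense exons of Pet100 overlap 51.5% of the exon bases of Pcp2, and antisense exons of Chtf18 overlap 51.6% of those of Gng13. Without strand information from the kit, the levels of Pcp2 and Gng13 may include RNA of Pet100 and Chtf18, which was not tested.

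Gm27624 was the only gene called lower. It is a misc_RNA model of 177 bases on chromosome 11 (3644776 to 3644952, GRCm38) that lies wholly within an exon of Tug1 on the same strand, so reads of Tug1, a long non-coding RNA, cannot be kept apart from it. It measured 72.2, 43.5, 23.6 and 27.3 FPKM at day 2 and 4.66, 1.17, 0 and 0 FPKM at day 7, a change of -4.38 ± 0.49 with an adjusted p of 0.0416. Tug1 itself measured 15.5, 16, 5.87 and 5.18 FPKM at day 2 and 0.825, 2, 0.862 and 2.59 FPKM at day 7. Both models showed every day 7 library below every day 2 library. The call of Gm27624 was lost on leaving out any 1 library (adjusted p 0.0673 to 0.182).

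A further 8 genes shared the next adjusted p, 0.0508, just outside the threshold. They are Spp1, Cd63 and Ch25h, which were higher at day 7, and Stmn1, Gm11223, Spc24, Pimreg and Gm27517, which were lower. Each of the 8 had libraries of the 2 days that do not overlap. For Ch25h, under 1 FPKM throughout day 2, and Pimreg, under 1 FPKM throughout day 7, the filter required this. Gm27517 is another model inside Tug1. Gm11223 is a processed pseudogene whose 450 bases are 99.8% identical to Stmn1, so its values and those of Stmn1 may be the same reads.

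**Figure D1:**
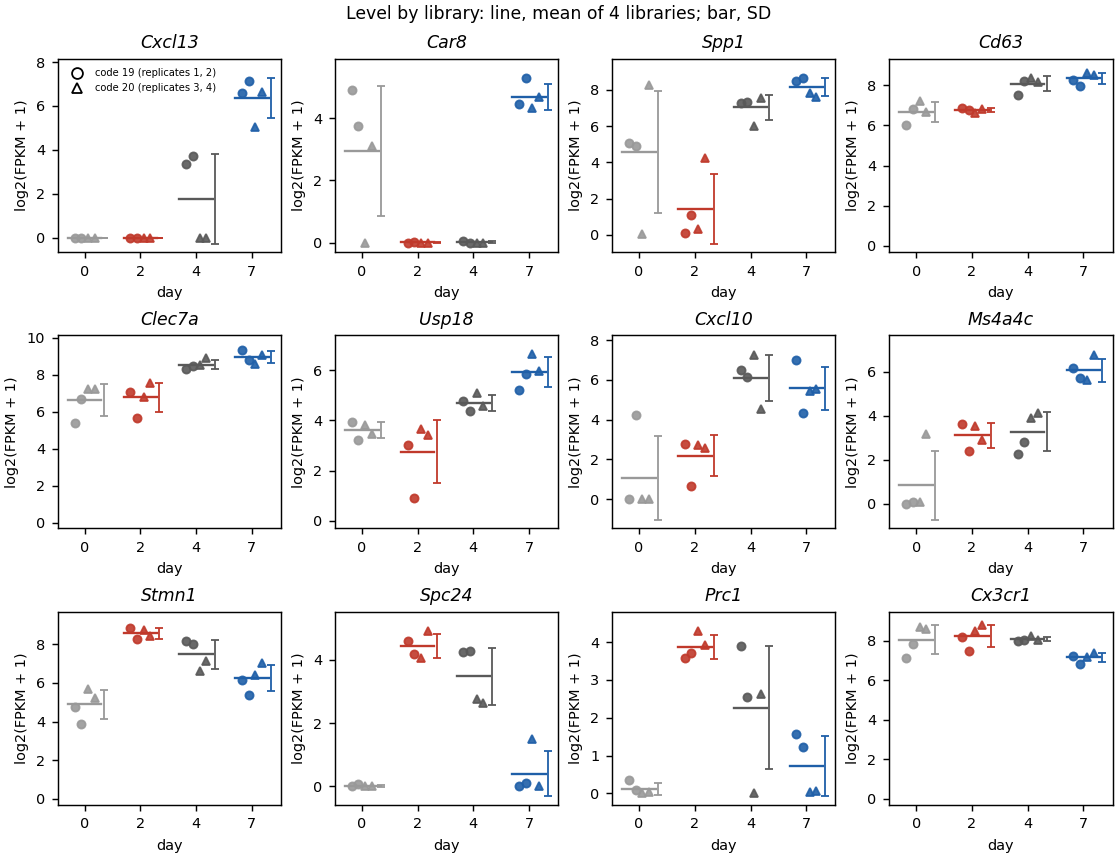
Level of 12 genes, as log2(FPKM + 1), in each library (points; circles for title code 19, triangles for code 20), by day; lines mark the mean of 4 libraries and bars the SD. Day 2 is red, day 7 blue, and days 0 and 4 grey. Cxcl13 is at 0 in all day 2 libraries and at 31.4 FPKM or more at day 7, while Stmn1 lies between 305 and 464 FPKM at day 2 and between 40.7 and 129 FPKM at day 7.

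Genes of cell division were lower at day 7. Over 4 lists of replication, DNA synthesis, spindle and cyclin genes, 91 of 117 members were expressed highly enough to be tested, and 84 of the 91 had a lower fitted level at day 7. None was called. The members of these lists and of all lists below were chosen with earlier results of these data known. Their shares therefore only describe these data and are not independent support. In 23 of the 91 (25.3%) all day 7 libraries lay below all day 2 libraries, against 3.47% of all genes tested, and in none did they all lie above. The median change was -1.57, against -0.11 for all genes, and -1.33 without day 7 replicate 4. The mean log2 level of the 117 genes was 2.90, 2.47, 3.37 and 3.43 at day 2 and 1.88, 1.34, 2.00 and 1.47 at day 7. The groups do not overlap. The untreated libraries ranged from 0.97 to 1.46 and day 4 from 2.03 to 3.95, so day 7 reached into the untreated range.

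The genes of the spindle, the kinetochore and cytokinesis had the largest median difference of the 4 lists, at -2.15 over 43 members tested (-1.81 with code 19 and -2.49 with code 20). In 17 of these 43 (39.5%) all day 7 libraries lay below all day 2 libraries, against 3.47% of all genes tested. Spc24, a subunit of the NDC80 kinetochore complex that holds microtubules, measured 23.2, 17.4, 15.5 and 29.1 FPKM at day 2 and 0, 0.0804, 1.79 and 0 FPKM at day 7. Its level was near 0 in 3 of the 4 day 7 libraries. Stmn1, which destabilises microtubules and is high in dividing cells, measured 464, 305, 420 and 340 FPKM at day 2 and 70.3, 40.7, 84 and 129 FPKM at day 7, a change of -2.32 ± 0.31. Every day 7 value was less than the lowest day 2 value, and the untreated mean was 31.7 ± 15.3 FPKM (SD, n = 4). Pimreg, a mitotic gene outside the lists, went from 10.1 to 19.6 FPKM at day 2 to at most 0.12 FPKM at day 7.

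Prc1, which bundles the microtubules of the central spindle, measured 10.9, 12.1, 18.6 and 14.3 FPKM at day 2 and 1.99, 1.33, 0.0258 and 0.0508 FPKM at day 7 (-3.15 ± 0.55, adjusted p = 0.125). Ube2c, the ubiquitin-conjugating enzyme of the anaphase-promoting complex, measured 51.7, 26.3, 65.7 and 38.5 FPKM at day 2 and 5.14, 4.96, 15.7 and 4.9 FPKM at day 7 (-2.51 ± 0.44, adjusted p = 0.128). Both had days that do not overlap. Cdc20, which activates the same complex, was at 21.6 to 32.2 FPKM at day 2, at 15 FPKM in day 7 replicate 3, and at no more than 0.244 FPKM in the other 3 day 7 libraries. Birc5 (survivin), Plk1 and Kif20b also had all day 7 libraries below all day 2 libraries, with changes of -1.83, -3.63 and -2.67. Kif20b was under 1 FPKM in every day 7 library, so the filter required its separation. In the fit with all 16 libraries Spc24, Stmn1, Cenpa, Nusap1 and Prc1 were called lower, with adjusted p from 0.00562 to 0.0451. Spc25, another subunit of the complex that holds Spc24, did not share the pattern: it measured 45, 66.6, 73.8 and 34.7 FPKM at day 2 and 280, 114, 21.9 and 35.3 FPKM at day 7.

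Promoters of genes used in mitosis are known for the element TTTGAA near the start site together with CCAAT boxes upstream. The stretches of 120 bases before the start site of 3 of these genes are shown to make these elements visible, from RefSeq on GRCm38.p6, on the strand of the gene, with TTTGAA and CCAAT in capitals on either strand (TTCAAA and ATTGG are the reverse complements). For Prc1, which has several starts in the table, the downstream one was used. The positions are chr7:80294356-80294475 (plus strand) for Prc1, chr4:118437344-118437463 (minus strand) for Cdc20 and chr2:164769809-164769928 (plus strand) for Ube2c.
Prc1: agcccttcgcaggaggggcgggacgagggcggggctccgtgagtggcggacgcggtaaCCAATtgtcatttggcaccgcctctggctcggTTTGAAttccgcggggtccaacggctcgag
Cdc20: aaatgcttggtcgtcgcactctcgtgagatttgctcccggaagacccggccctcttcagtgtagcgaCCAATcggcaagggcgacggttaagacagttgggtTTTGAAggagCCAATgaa
Ube2c: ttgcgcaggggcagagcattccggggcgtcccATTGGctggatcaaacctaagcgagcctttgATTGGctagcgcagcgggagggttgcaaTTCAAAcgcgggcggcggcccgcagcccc
In Cdc20 a TTTGAA starts 18 bases before the start site, and in Ube2c its reverse complement starts 29 bases before. In windows from 250 bases before to 50 after the start, 73.8% of the 42 spindle, kinetochore and cytokinesis genes matched (42 of 49) held TTTGAA and 73.8% held CCAAT. Of all 27025 genes in the promoter table, 20.2% held TTTGAA and 41.1% held CCAAT. These elements were counted as letters on both strands, which is a description and does not show binding.

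The lists of replication and DNA synthesis showed smaller and more variable differences. Over 12 replication licensing genes tested the median change was -1.18, and -0.76 without day 7 replicate 4. Mcm7, a subunit of the helicase that opens DNA at origins, measured 25.6, 8.53, 37.7 and 36.2 FPKM at day 2 and 2.19, 0.00771, 8.11 and 0.161 FPKM at day 7. Mcm6, another subunit of that helicase, also did not overlap between days, at 6.44 to 58.1 FPKM and 0.0455 to 3.3 FPKM. Mcm3, the member with the highest mean but 1, varied from 0.214 to 109 FPKM within day 2 alone and overlapped. Gins4, of the GINS complex that travels with the helicase, measured 17.1 to 67.8 FPKM at day 2 and 17.1, 14, 17.6 and 0 FPKM at day 7. Tipin, which protects replication forks, overlapped as well (-0.39 ± 0.32). Pcna, the sliding clamp of DNA polymerase, differed less but in every library, at 58.8, 62.7, 61.2 and 68.6 FPKM against 49.2, 36.5, 42.9 and 31.5 FPKM (-0.66 ± 0.25, adjusted p = 0.444). Cdk4, a kinase of early cell cycle entry, was at 48.4 to 68.2 FPKM and 34.8 to 61.5 FPKM and overlapped. Ccnb2, a mitotic cyclin, measured 112, 74.3, 108 and 86.2 FPKM at day 2 and 12.8, 8.64, 8.41 and 86.1 FPKM at day 7. Day 7 replicate 4 alone came close to the day 2 range in this gene, and without that library Ccnb2 was called lower (adjusted p = 0.0438).

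Genes induced by interferon were higher at day 7. Of 44 members of the interferon response list, 38 were tested and 36 of these had a higher fitted level at day 7. None was called. In 12 of the 38 (31.6%) all day 7 libraries lay above all day 2 libraries, against 1.77% of all genes, and in none did they all lie below. The median change was 1.35 (1.52 with code 19, 1.02 with code 20, 1.29 without day 7 replicate 4). Together with 14 interferon-induced GTPases, the mean log2 level was 2.74, 2.37, 3.17 and 3.26 at day 2 and 4.14, 4.07, 4.07 and 3.91 at day 7. The groups do not overlap, and the untreated range, 1.81 to 2.65, lay below day 7 and reached into day 2. At day 4 the level was 3.76 and 3.89 in replicates 1 and 2 (code 19), just below day 7. In replicates 3 and 4 (code 20) it was 3.03 and 2.60, below the day 2 libraries of that code.

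Usp18, which removes the ubiquitin-like ISG15 from proteins and dampens interferon receptor signalling, had the lowest p of the list. It measured 7.07, 0.897, 11.8 and 9.59 FPKM at day 2 and 36.5, 57.1, 100.2 and 61.7 FPKM at day 7 (3.18 ± 0.50, adjusted p = 0.0992). Every day 7 library was more than 3 times the highest day 2 library. It was called in the fit of all 16 libraries (adjusted p = 0.0158). On the opposite strand 39.2% of the exon bases of the non-coding model Gm44148 overlap Usp18, and the library kit does not mark strand. Cxcl10, a chemokine induced by interferon that attracts T cells, measured 5.8, 0.576, 5.67 and 4.99 FPKM at day 2 and 125, 19.1, 41.7 and 45.5 FPKM at day 7 (3.38 ± 0.68, adjusted p = 0.167). Ifit1, which binds foreign RNA, measured 7.03, 10.3, 0 and 8.97 FPKM at day 2 and 164, 24.8, 39 and 40.9 FPKM at day 7. In all 3 genes the libraries of the days do not overlap.

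Ifitm3, an antiviral membrane protein, measured 433.6, 599.6, 924.6 and 336.1 FPKM at day 2 and 1474, 1049, 1507 and 2290 FPKM at day 7 (1.51 ± 0.34). Ifi27l2a measured 679.4, 641.8, 1252 and 258.2 FPKM at day 2 and 1591, 1259, 2496 and 4080 FPKM at day 7 (1.79 ± 0.50). These 2 were the most abundant members, and both had days that do not overlap. Rtp4, Ifi211 and Ifi204 also did not overlap, with changes of 2.36, 2.12 and 1.85. Ifi211 and Ifi204 have similar transcripts (96.9% identity over 1363 bases), as do Ifit3 and Ifit3b (97.8% over 1700 bases), so reads may be shared within each pair. Among 9 interferon-induced GTPases tested the median was 1.3, and no member had days that do not overlap. So short a list may hold none at the shares of all genes (1.77% above, 3.47% below). Gbp2 and Irgm1, the 2 most abundant, had changes of 2.91 ± 0.81 and 2.49 ± 0.60 with 3 of 4 day 7 libraries above day 2.

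Interferon-induced promoters are known for a pair of GAAA separated by 2 bases of any kind, bound by interferon regulatory factors. Cxcl10 and Ifit1 show that element in capitals, next to Cxcl13, the lead gene. The stretch shown is 240 bases for Cxcl10 and 120 bases for Ifit1 and Cxcl13. TTTGAA is the only searched element in the 120 bases of Cxcl13. An element as far upstream as that of Cxcl10 would lie outside them, so its absence from Cxcl13 is not shown. The stretches end at the start site and lie at chr5:92348890-92349129 (minus strand), chr19:34640769-34640888 (plus strand) and chr5:95956819-95956938 (plus strand).
Cxcl10: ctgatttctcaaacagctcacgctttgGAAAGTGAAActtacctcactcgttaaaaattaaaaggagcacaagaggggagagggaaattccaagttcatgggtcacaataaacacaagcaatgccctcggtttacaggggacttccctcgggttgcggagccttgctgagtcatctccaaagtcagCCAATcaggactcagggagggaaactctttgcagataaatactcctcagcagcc
Ifit1: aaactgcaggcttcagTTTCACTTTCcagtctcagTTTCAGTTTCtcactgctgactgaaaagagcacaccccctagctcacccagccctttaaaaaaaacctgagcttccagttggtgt
Cxcl13: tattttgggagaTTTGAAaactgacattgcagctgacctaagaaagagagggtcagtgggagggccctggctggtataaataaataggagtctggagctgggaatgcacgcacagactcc
In Cxcl10 the element starts 213 bases before the start site, with a CCAAT 54 bases before it. In Ifit1 the element occurs as its reverse complement 104 and 85 bases before. The element stood in the windows of 3.99% of all genes in that collection. Windows were given for 33 of the 44 interferon response genes, under the 80% set for such a count, so no share of that list is reported. TTTGAA thus also stands upstream of Cxcl13, which was higher at day 7.

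Class I antigen presentation genes, many of which interferon induces, had a median change of 0.42 over 16 tested. B2m, the light chain of class I molecules, measured 6563, 6517, 6969 and 5523 FPKM at day 2 and 9994, 8219, 9606 and 13750 FPKM at day 7 (0.68 ± 0.22, adjusted p = 0.366). H2-K1 and H2-Q7 also had all day 7 libraries above day 2. With B2m they were the only 3 of the 16 to do so (18.8%, against 1.77% of all genes). H2-D1 and other class I heavy chains resemble each other in sequence, and their values are uncertain to that extent (H2-Q7 is 84.8% identical to H2-K1 over 776 bases). Class II genes had a median of -0.58 over 11 tested, with 3 higher and 8 lower at day 7. None of them had days that do not overlap, as may occur in so short a list.

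Markers of the disease-associated state were higher at day 7 in part. Of 28 members tested 24 had a higher fitted level, and in 9 (32.1%) all day 7 libraries lay above all day 2 libraries, against 1.77% of all genes. None was called, and the median was 0.69 (1.02 with code 19, 0.48 with code 20, 0.91 without day 7 replicate 4). The mean log2 level of the 30 members was 5.61, 5.51, 5.94 and 6.16 at day 2 and 7.28, 6.71, 7.32 and 6.81 at day 7, while the untreated libraries ranged from 5.38 to 6.13. Spp1, which encodes osteopontin, a secreted adhesion protein, measured 0.0702, 1.11, 0.254 and 18.1 FPKM at day 2 and 354, 400, 229 and 198 FPKM at day 7 (6.71 ± 0.85, adjusted p = 0.0508). Its day 2 level was low in all 4 libraries, and its untreated level varied, at 32, 29.1, 0.0469 and 304.6 FPKM. Cd63, a tetraspanin of late endosomes, was the most even: 116, 107, 97.3 and 113 FPKM at day 2 and 308, 252, 391 and 366 FPKM at day 7 (1.57 ± 0.21, adjusted p = 0.0508). The untreated mean of Cd63, 105.9 ± 34.3 FPKM, was close to day 2.

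Ch25h, which makes 25-hydroxycholesterol, was at or below 0.151 FPKM at day 2 and at 21.3, 6.6, 25 and 38 FPKM at day 7. Clec7a (dectin-1, a receptor for fungal glucans) measured 133, 50.2, 110 and 187 FPKM at day 2 and 648, 447, 384 and 530 FPKM at day 7 (2.17 ± 0.39, adjusted p = 0.128). Cst7 (cystatin F, an inhibitor of lysosomal proteases) measured 121, 10.1, 127 and 38 FPKM and 568, 337, 321 and 294 FPKM. Igf1, a growth factor, measured 0 to 1.84 FPKM and 3.88 to 8.92 FPKM. All 4 of these genes had days that do not overlap, which the filter required of Ch25h. Cd63, Spp1 and Clec7a were called higher in the fit with all 16 libraries, with adjusted p of 0.0158, 0.0451 and 0.0349. The most abundant members did not separate: Tyrobp, the adaptor of Trem2, lay between 4281 and 6039 FPKM at day 2 and between 3563 and 6368 FPKM at day 7, and Ctsd, a lysosomal protease, between 1636 and 4502 FPKM and between 2011 and 6514 FPKM. Apoe, a lipid carrier, had a change of 0.25 ± 0.23. Lysosome and phagocytosis genes had a median of 0.05 over 33 tested, with no member whose days do not overlap. A list of this size may hold none at the shares of all genes (1.77% above, 3.47% below).

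Several chemokines were higher at day 7 alongside Cxcl13. Of 18 cytokine and chemokine genes tested, 14 had a higher and 4 a lower fitted level at day 7, and 1 was called. In 9 of the 18 all day 7 libraries lay above all day 2 libraries, against 1.77% of all genes, with a median of 1.05 (1.22 with code 19, 1.25 with code 20). The list includes Cxcl10, described with the interferon genes. The mean log2 level of the 29 members was 2.93, 2.75, 2.87 and 2.78 at day 2 and 4.2, 3.78, 4.07 and 3.56 at day 7, and at day 4 it was 4.06 to 4.5. Ccl12, a chemokine for monocytes and the most abundant member, measured 616.8, 374.6, 979.8 and 582 FPKM at day 2 and 1089, 1370, 1411 and 2668 FPKM at day 7 (1.35 ± 0.29, adjusted p = 0.183). Its day 4 mean was higher than either day, at 8024 FPKM. Ccl3 measured 61, 86.5, 26.9 and 14.3 FPKM and 206, 155, 202 and 332 FPKM (2.47 ± 0.50). Ccl4, with the same receptor, measured 180, 99.1, 68.6 and 14.1 FPKM and 266, 334, 876 and 802 FPKM. Ccl5 measured 52.8, 110, 53.4 and 31 FPKM and 633, 241, 115 and 405 FPKM. In these 4 the days do not overlap, and Ccl2, Ccl6 and Ccl9 showed the same order. Il1b did not pass the filter: it was at 6.89 FPKM in day 2 replicate 2, at 24 FPKM in day 7 replicate 1, at 17.8 FPKM in day 7 replicate 2, and at 0.266 FPKM or less in the other 5 libraries.

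The study's title names GPR84, TNF and IL-1α among others, and none of their genes was called between the 2 days. Gpr84, a receptor for medium-chain fatty acids, measured 28.1, 21.3, 44.5 and 37.7 FPKM at day 2 and 17.4, 39.5, 104 and 60.8 FPKM at day 7 (0.52 ± 0.37, adjusted p = 0.676). Exons of the antisense model Gm49482 overlap 39.5% of its exon bases, and the kit does not mark strand. Tnf measured 0, 0.164, 0 and 6.09 FPKM at day 2 and 8.43, 2.27, 25.2 and 0 FPKM at day 7 (adjusted p = 0.65). Il1a measured 45.4, 1.06, 88.7 and 90.3 FPKM and 80.9, 77.5, 104 and 32.7 FPKM (adjusted p = 0.75). Libraries of the days overlapped in all 3, and day 4 held their highest means, 127.6, 41.4 and 225.1 FPKM. C1qa, the first complement component, had a change of -0.18 ± 0.20. Rhoa, a small GTPase of the cytoskeleton, and Rock1 and Rock2, kinases that it activates, had changes of -0.47 ± 0.27, -0.88 ± 0.52 and -1.55 ± 0.63, all with adjusted p of 0.478 or more.

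Markers of surveying microglia were lower at day 7, with a median of -0.63 over 20 members tested (-0.40 with code 19, -0.88 with code 20, -0.56 without day 7 replicate 4), and 17 of the 20 had a lower fitted level. None was called, and 2 of the 20 had all day 7 libraries below all day 2 libraries, against 3.47% of all genes. The mean log2 level of the 20 members was 8.03, 7.53, 8.49 and 8.50 at day 2. At day 7 it was 7.72, 7.36, 7.64 and 7.37. The groups overlap, and all day 7 values lay within the untreated range, 6.78 to 8.49. Cx3cr1, the receptor for the neuronal chemokine fractalkine, measured 292, 175, 361 and 441 FPKM at day 2 and 149, 113, 144 and 166 FPKM at day 7 (-1.08 ± 0.25, adjusted p = 0.225). Slc2a5, a fructose transporter, measured 47.6, 45.4, 103 and 53 FPKM and 28.3, 22.3, 20.4 and 7.25 FPKM. P2ry12, a purine receptor, had 3 of 4 day 7 libraries below day 2 (-1.16 ± 0.36), and so did Tmem119 (-1.61 ± 0.36). Ctss and Aif1, the gene whose promoter drives the reporter, had changes of -0.09 ± 0.24 and 0.31 ± 0.24. In bulk samples a lower level in all cells and fewer cells with the transcript cannot be told apart.

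**Figure D2:**
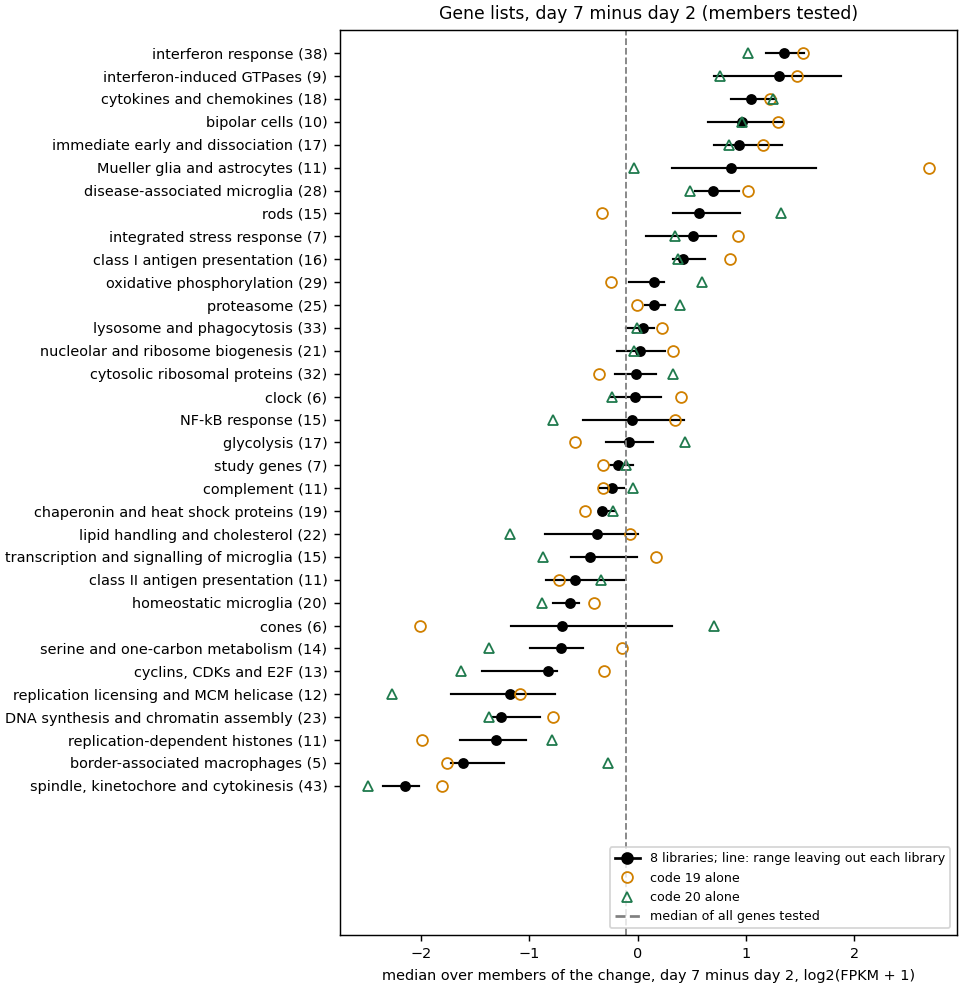
Median over members of the change from day 2 to day 7, on the log2(FPKM + 1) scale, for each list with at least 5 members tested (the number in parentheses); black points are the 8 libraries, lines the range on leaving out each library in turn, and open symbols the 2 title codes alone. The dashed line is the median of all genes tested, -0.11. The spindle list lies furthest to the left, at -2.15, and the interferon response list furthest to the right, at 1.35.

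Housekeeping programmes lay near the median of all genes. Cytosolic ribosomal proteins had a median of -0.02 over 32 tested, nuclear-encoded oxidative phosphorylation subunits 0.15 over 29, glycolytic enzymes -0.08 over 17, proteasome subunits 0.15 over 25 and nucleolar factors 0.02 over 21. In 3 of these 5 lists no member had days that do not overlap. Over all genes the shares were 1.77% above and 3.47% below, so lists of this size may hold none. The medians of the ribosomal, oxidative phosphorylation and glycolytic lists had opposite signs in the 2 title codes. Serine and one-carbon metabolism had a median of -0.70 over 14 tested, at -0.15 and -1.37 in the 2 codes. Immediate early genes, which also respond to the handling of tissue, were higher at day 7, with a median of 0.94 over 17 tested. Of the 17, 16 had a higher and 1 a lower fitted level, and none was called. Ier2 measured 9.94, 10.2, 19.5 and 22.3 FPKM at day 2 and 195, 63.6, 217 and 61.1 FPKM at day 7 (2.88 ± 0.50, adjusted p = 0.125). Fos and Junb, the most abundant of this list, overlapped, with changes of 0.81 ± 0.78 and 2.08 ± 0.56. Handling times are not stated in the labels.

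**Figure D3:**
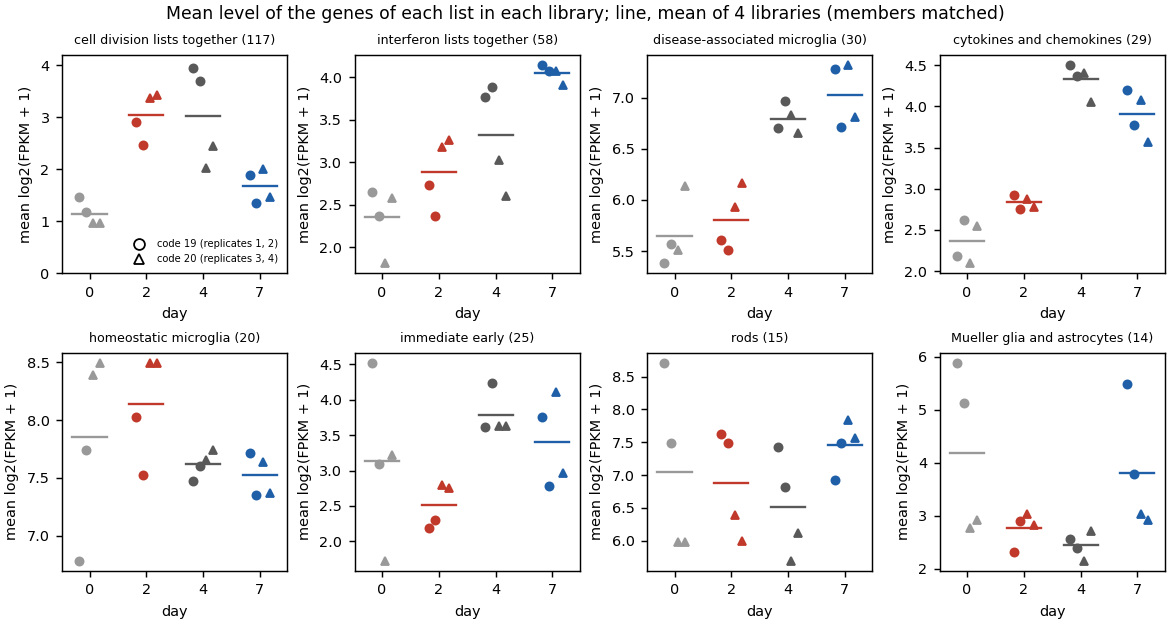
Mean log2(FPKM + 1) over the genes of each list in every library, by day (circles, title code 19; triangles, code 20; lines, means of 4 libraries). Cell division genes lie at 2.47 to 3.43 at day 2 and at 1.34 to 2.00 at day 7, and interferon genes at 2.37 to 3.26 and 3.91 to 4.14. The rod list differs between the title codes at day 2.

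Transcripts of other retinal cells were found in the sorted samples and moved with the day in some libraries. The summed level of 15 rod genes was 7556, 7136, 2996 and 2324 FPKM at day 2 and 4445, 6684, 8340 and 6447 FPKM at day 7. The rod list thus had opposite medians in the title codes, -0.33 with code 19 and 1.32 with code 20. None of its 15 genes had days that do not overlap, against 1.77% above and 3.47% below over all genes. Gnat1, the rod transducin, overlapped between the days (adjusted p = 0.807). Of 14 Mueller glia and astrocyte genes, 11 were tested, and Clu and Dkk3 had all day 7 libraries above day 2. Clu, a secreted chaperone, measured 27.2, 20.1, 30.5 and 9.36 FPKM at day 2 and 772, 176, 96.6 and 114 FPKM at day 7. Dkk3 measured 2.24, 0.958, 11.8 and 4.49 FPKM and 147, 31.7, 46.2 and 99.1 FPKM. The mean level of that list was highest in day 7 replicate 1, at 5.47, against 2.92 to 3.79 in the other day 7 libraries and 2.32 to 3.04 at day 2. In the untreated libraries it reached 5.89. The part of this RNA in the changes of the cell division, interferon and chemokine genes was not tested. With the rod level as a covariate, 1 gene, Cxcl13, was called higher and none lower.

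Other cells in which the reporter could be active were also examined. Of 14 monocyte genes 2 passed the filter, Ms4a4c and Plac8, and both had all day 7 libraries above day 2. Over all genes tested that share was 1.77%, and 2 members are too few to read a share from. Ms4a4c measured 11.3, 4.34, 10.7 and 6.47 FPKM at day 2 and 71.1, 52.2, 47.7 and 108 FPKM at day 7 (2.95 ± 0.41, adjusted p = 0.0609). The summed level of the 14 genes was 10.8 to 16.4 FPKM at day 2 and 69.5 to 135.6 FPKM at day 7. Ms4a4c alone held most of the day 7 sums, which were 93, 72.2, 69.5 and 135.6 FPKM, so they largely repeat that gene. Ccr2, the defining chemokine receptor of inflammatory monocytes, was at or below 0.18 FPKM in all 8 libraries, and Ly6c2 reached 7.88 FPKM in day 7 replicate 2 and no more than 0.169 FPKM elsewhere. Markers of macrophages at the borders of the nervous system were lower at day 7, with a median of -1.61 over 5 tested (-1.76 with code 19 and -0.27 with code 20). Their summed level over 12 genes was 101.9 to 226.9 FPKM at day 2 and 22.8 to 108.5 FPKM at day 7. Pf4, a platelet factor also made by these macrophages, measured 105, 156, 74.3 and 52 FPKM and 12.2, 19.9, 33.2 and 79.3 FPKM. Ms4a7 overlapped, at 4.7 to 22.4 FPKM and 0 to 11.7 FPKM. F13a1, which did not pass the filter, measured 23.5, 19.9, 25.6 and 0.222 FPKM at day 2 and no more than 0.192 FPKM at day 7. Of 12 neutrophil genes only Csf3r, a growth factor receptor, passed the filter, at 8.44, 26.7, 72 and 55.1 FPKM at day 2 and 18.5, 23.2, 67.7 and 6.5 FPKM at day 7 (adjusted p = 0.87). The summed level of the 12 genes was 10.5 to 77.2 FPKM at day 2 and 6.97 to 67.8 FPKM at day 7, and the defining markers S100a8 and S100a9 were at most 1.4 FPKM.

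Most members of the lists above had the same direction in both title codes: 72 of the 91 cell division genes were lower at day 7 in both, and 32 of the 47 interferon genes and 12 of the 18 cytokine genes were higher in both. No gene had a difference between the codes that passed an adjusted p of 0.05, while 904 of 11281 had an unadjusted p under 0.05 for it. With 2 libraries of each day per code this comparison has little power. The cell division lists had a median of -0.98 with code 19 and -2.03 with code 20, and the interferon lists together 1.48 and 0.99. With code 19, where code and prefix are shared between the days, 1 gene, Spp1, was called higher and none lower, and with code 20 none was called in either direction.

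**Figure D4:**
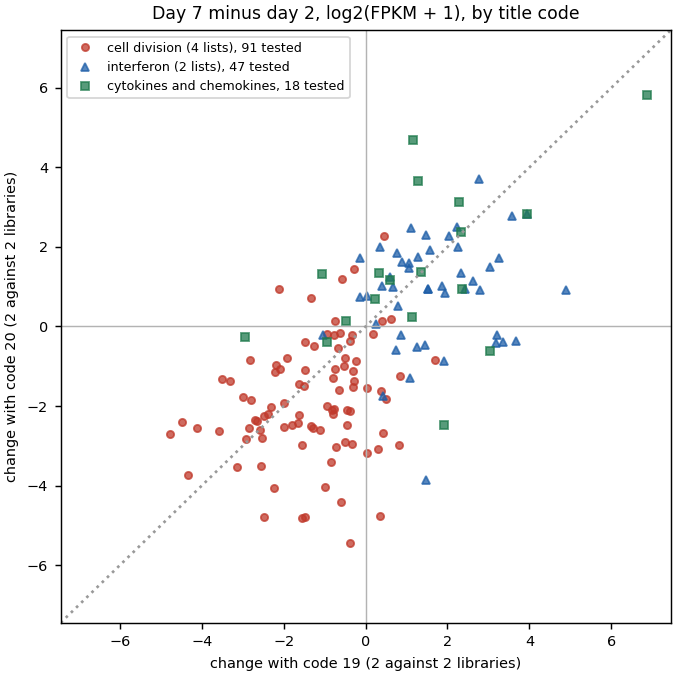
Change from day 2 to day 7, on the log2(FPKM + 1) scale, with title code 19 (horizontal) and code 20 (vertical), for genes tested of the cell division, interferon and cytokine lists; each point is 1 gene, and the dotted line marks equal change. Cell division genes lie mostly to the lower left, interferon and cytokine genes mostly to the upper right.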

How the data were processed

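Gene expression was measured by RNA sequencing of cDNA amplified from sorted cells and made into libraries with the Nextera XT kit, per the labels' protocols. The authors deposited FPKM for 55385 genes. Per the submitters' processing notes, the tools were STAR 2.7.2b and featureCounts 1.6.1 and the genome GRCm38.p6 (mm10). The handling of reads that map to several places or to overlapping genes is not stated there. Deposited FPKM times gene length summed to the same total in every library, and values were multiples of 0.01 read (tolerance 0.02 steps). Between 47.6% and 63.4% of values above 0 in the 8 libraries were whole reads, so a count test was not the main test.

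Genes that reached 1 FPKM in 4 or more of the 8 libraries were tested with limma 3.58.1 (R 4.3.3) on log2(FPKM + 1), with the first 4 digits of the title code as batch, two-sided, with Benjamini-Hochberg adjustment over all genes tested and a threshold of 0.05. The procedure was tested on simulated data. The 41 gene lists, of 803 genes with 799 matched, are described by counts and medians only. The members and lists were chosen with earlier results of these data known. Alternatives changed the pseudocount, filter, scaling, libraries, batch term, weights and tool. The naming rule took the genes of the study's title in every case, the 12 largest called changes in each direction with at least 5 FPKM and days that do not overlap, up to 6 called members per list or otherwise its 2 most abundant, and the 2 most abundant members of each list of other cells. Other genes the rule names belong to lists given by count and median alone, or not at all, and are not described. A few genes are not reported here. All other genes named were chosen after their values were seen. They include the members singled out within each list for days that do not overlap, the 8 genes tied at the next adjusted p and the genes of the 16-library fit. Promoter windows run from 250 bases before to 50 after a RefSeq start (GRCm38.p6). Similar transcripts were aligned with blastn.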

Additional observations from a re-analysis of the deposited data

Results flagged for a closer look

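For genes described above, 194 groups (1 gene on 1 day) were looked at. Chance flags about 1 in 20 groups, so several of those below may be chance. In them 1 library lay far from the other 3 of its day on the log2 scale (its gap to the nearest of them, over the whole range, passed Dixon's 95% critical value). At day 2 these were Tnf in replicate 4, at 6.09 FPKM against 0.164 or less, and Il1b in replicate 2, at 6.89 FPKM against 0.0606 or less. Also at day 2, Ccl9 was low in replicate 4 (42.1 FPKM against 74.6 to 77.7), F13a1 in replicate 4 (0.222 FPKM against 19.9 to 25.6), Cxcl10 in replicate 2 (0.576 FPKM against 4.99 to 5.8) and Ifit1 in replicate 3 (0 FPKM against 7.03 to 10.3). At day 7, 3 mitotic genes stood out in replicate 3: Spc24 at 1.79 FPKM against 0.0804 or less, Ube2c at 15.7 FPKM against 4.9 to 5.14, and Cdc20 at 15 FPKM against 0.244 or less. Plk1 was at 8.9 FPKM in day 7 replicate 1 and at most 0.0322 FPKM in the others. In day 7 replicate 2, Ly6c2 was at 7.88 FPKM against 0.169 or less. Day 7 values of 0 FPKM stood out for Gins4 in replicate 4 (against 14 to 17.6) and for Ms4a7 in replicate 2 (against 8.84 to 11.7). Car8 at 0.0232 FPKM in day 2 replicate 2 and Xist at 0.0173 FPKM in day 7 replicate 2 also passed, but the other 3 libraries were at 0, where any read passes, so nothing is read from these values.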

How the results depend on the processing

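The 2 genes called higher and the 1 called lower became 2 and 0 with a pseudocount of 0.1, 7 and 3 with a pseudocount of 5, 2 and 0 with no filter (45991 genes tested), 6 and 4 with a filter of 5 FPKM (6859 tested), 8 and 6 with median-of-ratios factors, and 2 and 0 after rescaling to TPM. They became 11 and 22 with all 16 libraries in the fit, 15 and 2 with the 12 libraries after crush, 7 and 5 with no batch term, 10 and 8 with array weights, 5 and 2 with voom on rebuilt fragments and 1 and 0 with the rod level as a covariate. They became 1 and 0 with code 19 alone, 1 and 0 without the 2 libraries of prefix F (the day 2 libraries of code 20), 0 and 0 with code 20 alone and 0 and 0 with the full title code (limma, where 1216 and 603 genes had an unadjusted p below 0.05). With the full code or without prefix F, code 20 holds no comparison of the days. The fitted changes then equal those of code 19 alone, so these settings are not separate checks of a change. Leaving out 1 library gave 0 to 2 higher and 0 to 1 lower. The replicate numbers do not pair the libraries (correlations of same-numbered deviations -0.073, 0.15, 0.080 and -0.076), and with replicate number as a block 0 and 0 were called (1006 genes with an unadjusted p below 0.05). Of the genes named, 9 without a call changed sign in some setting. Ctss was 0.070 with median-of-ratios factors, 0.23 with the full code, code 19 alone and no prefix F, 0.12 with the rod covariate and -0.24 to 0.044 on leaving out 1 library. Tyrobp was 0.11 with those factors, 0.35 with code 20 and -0.21 to 0.11 on leaving out 1 library. With the full code, code 19 and no prefix F alike, Csf3r was 0.43, Gnat1 -0.33, Aif1 -0.019 and Apoe -0.00097, and with the rod covariate Gnat1 was -0.12. With code 20 alone Il1a was -0.61, Spc25 -0.84 and Fos -0.13, and leaving out 1 library gave -0.049 to 1.9 for Il1a, -0.089 to 0.89 for Spc25 and -1.04 to 0.297 for Csf3r. The causes were not tested. Values under 0.212 to 0.347 FPKM rest on fewer than 3 reads at a gene length of 1 kb.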

Other observations

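A pair of tubulin genes outside the lists, chosen after their values were seen, had lower levels at day 7. Tuba1b, an alpha tubulin, measured 363, 246, 499 and 447 FPKM at day 2 and 136, 64.7, 198 and 120 FPKM at day 7, and Tubb5, a beta tubulin, measured 173, 111, 201 and 183 FPKM and 59, 38.9, 40.9 and 10.7 FPKM. In both, every day 7 library lay below every day 2 library, and neither was called with the 8 libraries (limma, adjusted p = 0.136 and 0.175), while both were called lower in the fit with all 16. Pseudogene models near-identical to Tuba1b were called with it (Gm3226 is 98.7% identical over 1349 bases), and the reads of these copies cannot be kept apart. Day 4 was higher than either day, at 539.5 FPKM for Tuba1b and 212.5 FPKM for Tubb5.

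A further 3 genes, chosen in the same way, were not called with the 8 libraries (limma, adjusted p = 0.203 for each). Cstb, an inhibitor of cathepsins, measured 152, 192, 181 and 130 FPKM at day 2 and 343, 246, 484 and 687 FPKM at day 7, and was called higher in the fit with all 16 libraries. Acsl5, which activates long-chain fatty acids, and Pde3b, a cyclic nucleotide phosphodiesterase, were called lower there, with 16.7 to 59.6 FPKM and 13.8 to 57.2 FPKM at day 2 and 0.167 to 6.39 FPKM and 2.52 to 7.89 FPKM at day 7.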
